A study of Mus musculus with 12 samples.

Results

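Chemokine ligands were examined in inguinal white adipose tissue (iWAT, the subcutaneous fat pad of the groin). The members were all genes of the deposited count table named Ccl or Cxcl with a number, together with Cx3cl1 and Xcl1, which gave 40 of the 54134 genes listed. The male C57BL/6J mice were 8 weeks old when they received adeno-associated virus (AAV) serotype 8 through the tail vein. The virus carried mouse Notum in 6 mice (AAV-Notum) and green fluorescent protein in 6 mice (AAV-GFP), in both groups under the thyroxine binding globulin promoter, which is active in liver, so that the fat pad was not the intended site of expression. Mice of both groups ate chow for the 4 weeks between injection and collection and were fasted for 4 h. The RNA of each mouse was sequenced as 1 library, and the comparison asked how the liver-derived NOTUM protein, a secreted enzyme that inactivates Wnt ligands, bears on the fat transcriptome.

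Chemokines are small secreted proteins that bind G protein-coupled receptors on leukocytes and direct their migration. Inflammatory chemokines such as CCL2 are induced in injured or expanding fat and draw monocytes and other cells from the blood, whereas homeostatic chemokines keep cells at their regular sites. CCL19, CCL21 and CXCL13 belong to the second kind: they are made by stromal cells of lymph nodes and guide T cells, dendritic cells and B cells into their zones, and the inguinal fat pad of the mouse surrounds a lymph node.

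Between 14711113 and 21618860 reads were counted on genes per mouse. The RNA integrity number (RIN) was 5.7 in AAV-GFP-2011, the lowest of all mice, 6.6 to 7.6 in the other AAV-GFP mice and 6.9 to 7.4 in AAV-Notum mice. RNA was isolated 2 days after collection in all mice but AAV-GFP-2012, in which the interval was 22 days. Fat had 1 to 17 reads of Notum itself in AAV-GFP mice and 8 to 16 in 4 AAV-Notum mice, but 560 and 433 reads in AAV-Notum-2032 and AAV-Notum-2041. Liver markers such as Alb were high in the same mice: the mean level of 5 hepatocyte markers was 3.36 and 5.61 log2 CPM in those mice, -0.50 to 0.88 in the other AAV-Notum mice and -0.30 to 8.35 over the AAV-GFP mice, and the part of liver RNA in the Notum reads was not tested. All 7 adipocyte markers, such as Adipoq and Plin1, were measured, with a mean level of 9.99 to 11.26 log2 CPM (CPM being counts scaled to library size) over the mice of the AAV-GFP group and 10.03 to 11.12 in the AAV-Notum group (exact permutation p = 0.340). Of these markers, 6 had a lower mean in AAV-Notum mice, 0 with an unadjusted p under 0.05 in edgeR or an adjusted p under 0.05 in DESeq2, and their level was highest in AAV-GFP-2014 (11.26) and AAV-GFP-2011 (11.19). The mean level of 8 B cell and 7 T cell markers, called the lymphoid score below, was -0.74 and -0.31 log2 CPM in AAV-GFP-2014 and AAV-GFP-2011 and 3.50 in AAV-GFP-2012. It was 6.08 to 6.65 in the other AAV-GFP mice and 4.97 to 7.08 in AAV-Notum mice. All 15 markers had a higher mean in AAV-Notum mice, 0 of them with an unadjusted p under 0.05 in edgeR, and none was at 0 over the mice of either group. By a two-sided exact permutation test, the score did not differ between the groups beyond their spread (p = 0.0844). Results that rest on those 3 AAV-GFP mice are therefore given with and without them.

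Of the 40 chemokine genes, 25 had enough reads to be tested. The other 15 fell below the filter on low counts, and 5 of these had 0 reads in every mouse. Per kilobase of exon, the chemokine ligands with the highest mean level in AAV-GFP mice were Ccl5 (55.0 CPM per kb), Ccl6 (51.4), Cxcl13 (49.5), Ccl11 (43.3), Ccl8 (40.2), Cxcl14 (34.7), Cxcl12 (29.2), Ccl9 (20.7) and Cxcl9 (18.6). Ccl2, at 2.93 CPM per kb, was 16th in this order. The first place of Ccl5 rested on 3 of the AAV-GFP mice, since it was low in the 3 of low lymphoid score, and its SD between mice (61.9 CPM per kb, n = 6) was larger than its mean. Between each of these 9 ligands and the next, the gap was smaller than the SD of at least 1 of the pair, so neighbours in this order do not differ beyond their spread.

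In AAV-Notum mice, 11 of the 25 tested ligands had a lower mean and 14 a higher mean than in AAV-GFP mice, and the median log2 fold change of 0.07 was near that of all 15585 genes tested (0.0077). At an unadjusted p under 0.05 in edgeR's quasi-likelihood test, 6 ligands (24.0%) were lower: Ccl6, Ccl7, Ccl9, Ccl11, Ccl24 and Cxcl14. Over all genes tested, 9.54% were lower at this p. No ligand was higher at an unadjusted p under 0.05, against 4.64% of all genes, although limma-voom called 5 ligands higher and DESeq2 called 1 (9.38% and 3.34% of all genes with these tools). With limma-voom 6 ligands and with DESeq2 6 were lower at this p (8.52% and 5.87% of all genes). After adjustment over all genes, 0 ligands passed 0.05 with edgeR or limma-voom (0.0513% of all genes did with edgeR, and the smallest adjusted p of a ligand was 0.140). DESeq2 called 2 ligands lower, Ccl11 and Cxcl14, and 0 higher at an adjusted p under 0.05 (2.17% and 0.481% of all genes). No ligand had groups that did not overlap (0.693% of all genes were lower and 0.398% higher in every AAV-Notum mouse). The count of 6 was 4 without AAV-GFP-2011, the mouse with the lowest RIN, when Ccl7 and Ccl24 no longer passed, and 5 with RIN as a covariate, when Ccl24 did not pass (7.0% and 5.95% of all genes were lower in these fits). The count of 0 higher was 4 without AAV-GFP-2022 (Ccl8, Ccl17, Cxcl10 and Xcl1), a fit in which 10.3% of all genes were higher at this p. Since whole fat was sequenced, fewer cells of a type and less RNA per cell cannot be told apart.

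**Figure D1:**
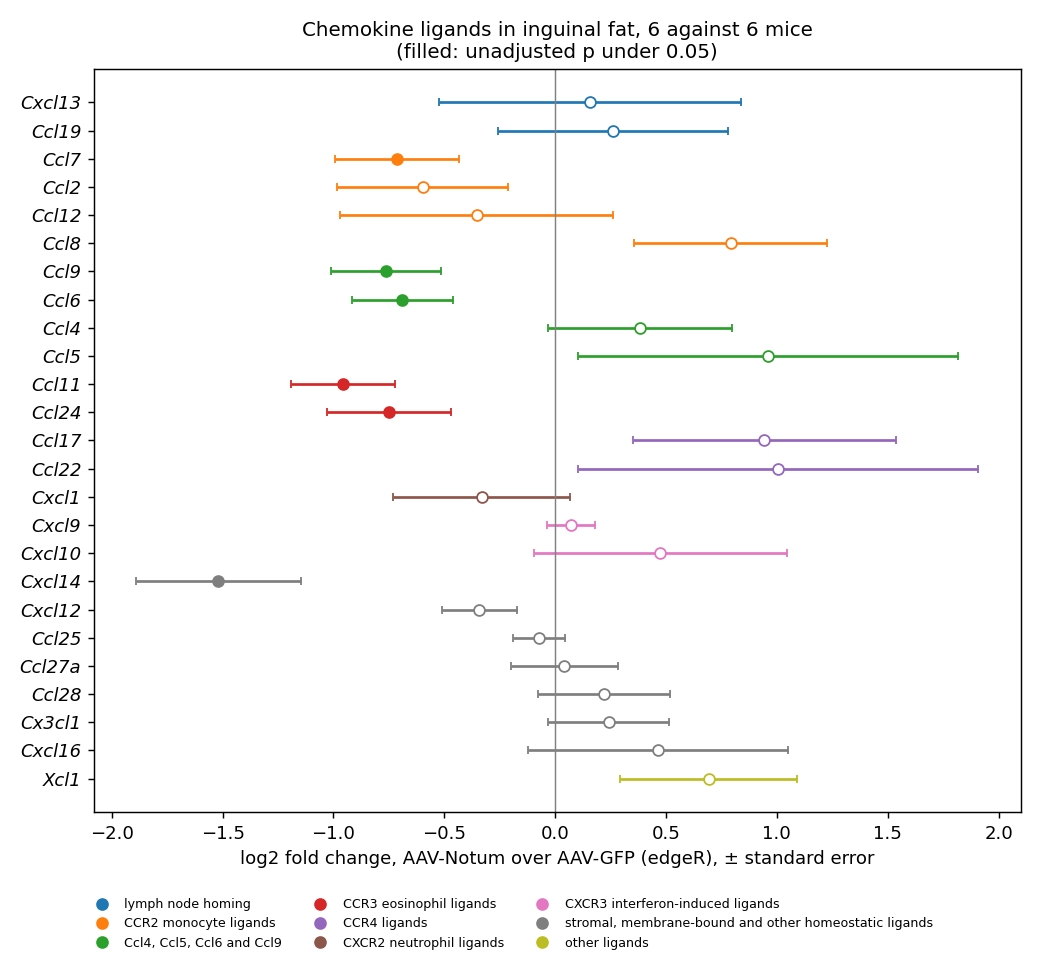
Log2 fold change (AAV-Notum over AAV-GFP, edgeR) of the 25 chemokine ligands tested, with the standard error as the bar and 6 mice per group; colours mark groups of related ligands and filled points have an unadjusted p under 0.05. The 6 filled points, Ccl6, Ccl7, Ccl9, Ccl11, Ccl24 and Cxcl14, lie between -1.52 and -0.69, and no ligand right of 0 is filled.

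Ccl11 (eotaxin, ENSMUSG00000020676, + strand of chromosome 11 of GRCm38, 82057823 to 82062955) encodes the ligand of CCR3 that attracts eosinophils. Its level ran from 28.7 to 73.2 CPM (median 42.1) in AAV-GFP mice and from 19.6 to 29.8 CPM (median 23.6) in AAV-Notum mice. The groups overlapped by 1 AAV-Notum mouse, and 5 of 6 AAV-Notum mice lay under the lowest AAV-GFP mouse. The mean went from 46.8 ± 18.9 to 24.1 ± 3.47 CPM (SD, n = 6 each), a log2 fold change of -0.96 (standard error, SE, 0.23, exact permutation p = 0.00649). This was 1.94-fold lower in AAV-Notum mice. The adjusted p of Ccl11 was 0.140 with edgeR and 0.0105 with DESeq2, and it ran from 0.0105 to 0.879 over 24 alternatives, all of which kept the unadjusted p under 0.05. Among the AAV-GFP mice, Ccl11 was highest in those with a low lymphoid score (73.2, 65.1 and 48.3 CPM in AAV-GFP-2011, AAV-GFP-2012 and AAV-GFP-2014), and the log2 fold change was -0.39 without these 3 mice (adjusted p = 0.879) and -0.51 with the lymphoid score as a covariate (adjusted p = 0.434).

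Ccl24 (eotaxin-2, ENSMUSG00000004814, - strand of chromosome 5, 135569937 to 135573049), another CCR3 ligand, had 2.71 to 8.69 CPM (median 4.90) in AAV-GFP mice and 2.32 to 3.69 CPM (median 3.26) in AAV-Notum mice. Its range in AAV-Notum mice lay within the lower part of the AAV-GFP range, apart from 1 mouse below it. The log2 fold change was -0.75 (SE 0.28, adjusted p = 0.269, exact permutation p = 0.0736). The unadjusted p of Ccl24 was 0.0198 in all mice, 0.0563 without AAV-GFP-2011 and 0.0530 without AAV-GFP-2012. Without the 3 AAV-GFP mice of low lymphoid score, the log2 fold change of Ccl24 was -0.07 (adjusted p = 0.9998). Ccl26, the third eotaxin gene, had 2 reads in all. The defining markers of eosinophils were near 0 in this fat: Siglecf had 28 reads, Epx 5 and Prg2 90 over all 12 mice, and the receptor gene Ccr3 had 34.

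Cxcl14 (ENSMUSG00000021508, - strand of chromosome 13, 56288643 to 56296551) encodes a homeostatic chemokine of epithelia and stroma. Its RefSeq promoter, 250 bases before to 50 after the gene's start on GRCm38.p6 (chr13:56296502-56296801, - strand), is shown because this member had the largest difference. The capitals mark the core of interferon response elements (GAAA, any 2 bases, then GAAA), whose first base lies at -172.

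Cxcl14 promoter: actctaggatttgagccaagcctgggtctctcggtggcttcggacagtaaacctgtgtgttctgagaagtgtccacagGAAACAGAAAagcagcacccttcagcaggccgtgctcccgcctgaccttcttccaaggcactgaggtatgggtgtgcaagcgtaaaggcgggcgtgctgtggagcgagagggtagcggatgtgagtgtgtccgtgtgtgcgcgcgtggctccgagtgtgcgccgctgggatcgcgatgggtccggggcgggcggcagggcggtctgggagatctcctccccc

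Cxcl14 had 31.4 to 138 CPM (median 49.2) in AAV-GFP mice and 13.8 to 31.4 CPM (median 21.4) in AAV-Notum mice. The highest AAV-Notum mouse (AAV-Notum-2032, 31.42 CPM) barely overlapped with the lowest AAV-GFP mouse (AAV-GFP-2013, 31.36 CPM). The means were 63.4 ± 40.3 and 22.1 ± 7.32 CPM (SD, n = 6 each), which made Cxcl14 2.86-fold lower in AAV-Notum mice (log2 fold change -1.52, SE 0.37, exact permutation p = 0.00433). The adjusted p was 0.140 with edgeR and 0.00701 with DESeq2 and ran from 0.00701 to 0.879 over 24 alternatives, again with an unadjusted p under 0.05 in each. AAV-GFP-2011, the mouse with the lowest RIN, alone had 138 CPM, and without it the log2 fold change was -1.14 (-1.12 with RIN as a covariate). Without AAV-GFP-2011, AAV-GFP-2012 and AAV-GFP-2014 it was -0.97 (adjusted p = 0.879), and with the lymphoid score as a covariate -0.90 (adjusted p = 0.467). The adipocyte markers were also highest in AAV-GFP-2014 and AAV-GFP-2011, the mice with the most Cxcl14 (76.8 and 138 CPM), and their part in the values of Cxcl14 and Ccl11 was not tested.

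Ccl6 and Ccl9 encode ligands of CCR1 that macrophages and other myeloid cells make. They are neighbours on the - strand of chromosome 11 (Ccl9, ENSMUSG00000019122, 83572919 to 83578636, and Ccl6, ENSMUSG00000018927, 83587882 to 83593087). Their RefSeq promoters (chr11:83593038-83593337 for Ccl6 and chr11:83578587-83578886 for Ccl9, GRCm38.p6, - strand) are shown because both genes were lower by a like amount. The capitals in the Ccl9 promoter mark the NF-kB consensus, read on the opposite strand, from -35. No motif searched was found in the Ccl6 promoter.

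Ccl6 promoter: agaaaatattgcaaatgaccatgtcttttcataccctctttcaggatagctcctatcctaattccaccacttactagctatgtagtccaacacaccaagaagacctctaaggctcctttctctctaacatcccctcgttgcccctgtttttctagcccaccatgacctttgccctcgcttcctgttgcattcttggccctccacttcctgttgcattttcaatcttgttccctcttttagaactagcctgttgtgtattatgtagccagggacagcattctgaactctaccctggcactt

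Ccl9 promoter: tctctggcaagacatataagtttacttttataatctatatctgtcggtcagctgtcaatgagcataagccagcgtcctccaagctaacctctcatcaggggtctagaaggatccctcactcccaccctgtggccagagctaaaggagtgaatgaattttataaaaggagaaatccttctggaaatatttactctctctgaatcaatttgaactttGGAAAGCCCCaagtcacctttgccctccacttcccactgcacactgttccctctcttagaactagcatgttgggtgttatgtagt

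Ccl6 had 49.9 to 127 CPM (median 92.5) in AAV-GFP mice and 35.9 to 76.8 CPM (median 55.1) in AAV-Notum mice. In 4 AAV-GFP mice Ccl6 was above every AAV-Notum mouse, and AAV-GFP-2014 had the lowest level of its group. The log2 fold change of Ccl6 came to -0.69 (SE 0.23, adjusted p = 0.223, exact permutation p = 0.0303), or 1.61-fold lower. Ccl9 had 31.5 to 85.9 CPM (median 62.1) in AAV-GFP mice and 23.3 to 56.97 CPM (median 34.4) in AAV-Notum mice. In Ccl9, too, 4 AAV-GFP mice were above every AAV-Notum mouse and AAV-GFP-2014 was the lowest of its group. The log2 fold change of Ccl9 was -0.76 (SE 0.25, adjusted p = 0.217, exact permutation p = 0.0303), or 1.70-fold lower. Both kept an unadjusted p under 0.05 in all 24 alternatives: without the 3 AAV-GFP mice of low lymphoid score, Ccl6 was at -0.59 and Ccl9 at -0.69 (adjusted p = 0.879 for each).

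Macrophage markers moved unequally beside these genes. Of 9 macrophage markers, 7 had a lower mean in AAV-Notum mice, 2 of them with an unadjusted p under 0.05, and none was at 0. Of all genes tested, 9.54% were lower at this p, and 0.693% were lower in every AAV-Notum mouse than in every AAV-GFP mouse. Cd163, a scavenger receptor of resident macrophages, was at 46.9 to 81.9 CPM in the AAV-GFP group and 27.2 to 46.1 CPM in the AAV-Notum group, without overlap (log2 fold change -0.94, adjusted p = 0.0696 with edgeR and 2.48e-05 with DESeq2). Mrc1, the mannose receptor, had a log2 fold change of -0.40 (exact permutation p = 0.0693), whereas Adgre1, which encodes F4/80, was at -0.23 (0.416) and Csf1r at 0.26 (0.383). The mean level of the 9 markers was 5.40 to 6.35 log2 CPM in the AAV-GFP group and 5.53 to 6.15 in the AAV-Notum group (exact permutation p = 0.323). With this score as a covariate, the log2 fold change of Ccl6 was -0.43 (adjusted p = 0.199) and that of Ccl9 -0.48 (adjusted p = 0.184).

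**Figure D2:**
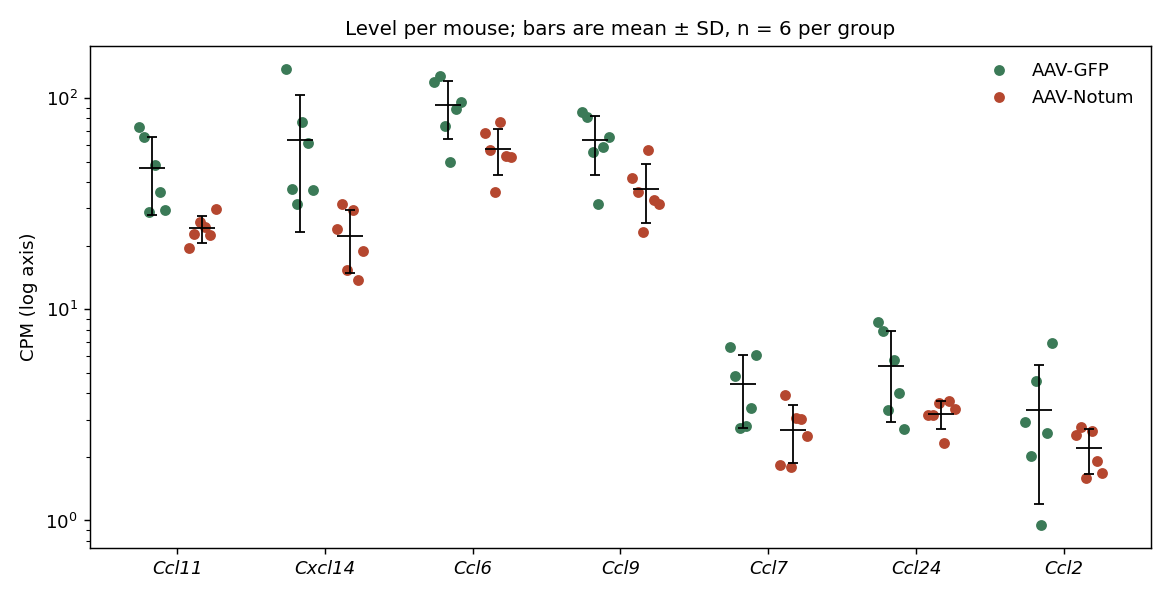
Level in CPM (log axis) of the 6 ligands with a lower level at an unadjusted p under 0.05 and of Ccl2 in each of 6 AAV-GFP (green) and 6 AAV-Notum (red) mice; black bars are the mean ± SD. For Ccl11 and Cxcl14, 5 of 6 AAV-Notum mice lie under the lowest AAV-GFP mouse, while for Ccl2 the AAV-Notum mice lie inside the AAV-GFP range.

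The CCR2 ligands attract monocytes into inflamed tissue. Of the 4 genes grouped here under that receptor, Ccl2, Ccl7 and Ccl12 had a lower mean in AAV-Notum mice and Ccl8 alone a higher mean. Ccl7 (ENSMUSG00000035373, + strand of chromosome 11, 82045712 to 82047525) had 2.75 to 6.61 CPM (median 4.12) in AAV-GFP mice and 1.79 to 3.93 CPM (median 2.77) in AAV-Notum mice. In 3 AAV-Notum mice it lay under the lowest AAV-GFP mouse. Its log2 fold change was -0.71 (SE 0.28, adjusted p = 0.293, exact permutation p = 0.0476). The unadjusted p of Ccl7 was 0.0254 in all mice and over 0.05 without AAV-GFP-2011 (0.0675), AAV-GFP-2022 (0.0602), AAV-Notum-2031 (0.0568) or AAV-Notum-2033 (0.0561). Without the 3 AAV-GFP mice of low lymphoid score, Ccl7 was at -0.60 and did not pass either (adjusted p = 0.983), and 17 of 24 alternatives kept its unadjusted p under 0.05.

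Ccl2 (MCP-1, ENSMUSG00000035385, + strand of chromosome 11, 82035571 to 82037453), the main monocyte attractant of expanding fat, had 580 reads over all mice in the first table. Its level was 0.954 to 6.96 CPM (median 2.75) in AAV-GFP mice and 1.59 to 2.78 CPM (median 2.22) in AAV-Notum mice. The AAV-Notum range lay inside the AAV-GFP range, with AAV-GFP-2014 lowest and AAV-GFP-2022 highest of all mice. The difference was not larger than the scatter among mice (log2 fold change -0.60, SE 0.39, adjusted p = 0.459, exact permutation p = 0.372). It depended on the mice used: the log2 fold change was -0.25 without AAV-GFP-2022, -0.79 without AAV-GFP-2014 and -1.09 without the 3 AAV-GFP mice of low lymphoid score. The latter 2 values passed an unadjusted p of 0.05 in edgeR, and the adjusted p ran from 0.133 to 0.849 over 24 alternatives.

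Ccl12 (MCP-5) had 0.298 to 9.91 CPM (median 3.38) in the AAV-GFP group and 2.54 to 4.82 CPM (median 3.34) in the AAV-Notum group. Of the AAV-GFP mice, 3 were above and 3 below every AAV-Notum mouse, the lower ones being those of low lymphoid score. The log2 fold change of Ccl12 was -0.35 (exact permutation p = 0.686), and -1.16 without those mice, which passed an unadjusted p of 0.05 in edgeR (adjusted p = 0.769), as did -1.01 with the lymphoid score as a covariate (adjusted p = 0.410). Leaving out the 3 lowest AAV-GFP mice raises the mean of that group by choice, so the p of that fit is no test of Ccl12. Ccl8 (MCP-2) went the other way, with 4.71 to 35.7 CPM (median 21.6) in the AAV-GFP group and 21.6 to 50.2 CPM (median 34.1) in the AAV-Notum group. The 3 AAV-GFP mice of low lymphoid score were again below every AAV-Notum mouse in Ccl8. Its log2 fold change of 0.79 (SE 0.43, adjusted p = 0.409, exact permutation p = 0.0671) came to 0.14 without them.

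These 4 genes and Ccl11 share 81.2 kb of chromosome 11. From Ccl2 at 82035571 onwards the order is Ccl2, Ccl7, Ccl11, Ccl12 and Ccl8, with log2 fold changes of -0.60, -0.71, -0.96, -0.35 and 0.79. A second stretch of 138.9 kb (83525778 to 83664683) holds Ccl5, Ccl9, Ccl6, Ccl3 and Ccl4, with 0.96, -0.76, -0.69 and, for Ccl4, 0.38, and Ccl3 not tested. Without the 3 AAV-GFP mice of low lymphoid score, the first 5 values were -1.09, -0.60, -0.39, -1.16 and 0.14, and those of Ccl5, Ccl9, Ccl6 and Ccl4 were 0.03, -0.69, -0.59 and -0.08. In edgeR, no value above 0 in either stretch passed an unadjusted p of 0.05, in all mice or without those 3. Ccl8 did pass in edgeR without AAV-GFP-2022. At this p, limma-voom also called Ccl5 and Ccl8 higher, and DESeq2 called Ccl3 higher.

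The authors also deposited a table of log2 normalised values, from which whole reads were recovered, and for several chemokine ligands it held other reads than the first table. Ccl2 had 900 reads there, 55.2% more, of which 260 of the additional reads were in AAV-GFP mice and 60 in AAV-Notum mice. With the second table, Ccl2 had 5.89 ± 2.24 CPM (SD, n = 6) in the AAV-GFP group and 2.81 ± 0.453 CPM (SD, n = 6) in the AAV-Notum group. The log2 fold change was then -1.06 (SE 0.25, adjusted p = 0.133 with edgeR, exact permutation p = 0.00649), with the groups still overlapping. AAV-GFP-2012 went from 34 to 94 reads and AAV-GFP-2014 from 16 to 52, whereas AAV-Notum-2034 went from 47 to 52. Ccl2 shares no exon with another gene of the annotation and 0 of its 1138 stretches of 50 bases occur elsewhere among annotated transcripts, and the cause of the additional reads was not tested. The study, which used DESeq2, listed Ccl2 and Ccl11 among the genes down-regulated in iWAT of AAV-Notum mice. Run here on the first table, DESeq2 gave Ccl2 an adjusted p of 0.437.

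The interferon-induced ligands of CXCR3, which attract activated T cells, differed as well between the tables. Cxcl10 had 1042 reads in the first table and 1760 in the second (68.9% more), and its log2 fold change went from 0.48 (exact permutation p = 0.253) to -0.05 (0.994). The first-table value depended on single mice, with 1.115 without AAV-GFP-2022 and 0.11 without AAV-Notum-2032. Cxcl11 had 37 reads in the first table, too few to be tested, and 449 in the second, where 318 were in the AAV-GFP group and 131 in the AAV-Notum group. In the second table its log2 fold change was -1.23 (SE 0.36, adjusted p = 0.179, exact permutation p = 0.0130). Exons of Cxcl11 overlap by 1582 bases with those of Gm2673 on the opposite strand, so reads of these genes cannot be told apart without strand, and a protocol that marks strand is not stated. Gm2673 had 437 reads in the first table and 13 in the second, and the pair together had 474 and 462. By group the pair did not keep its reads, with 292 in the AAV-GFP group and 182 in the AAV-Notum group in the first table and 327 and 135 in the second. The pair thus had fewer reads in the AAV-Notum group in both tables, by different amounts. These totals are not scaled to library size, and the pair was not tested. Gm2673 alone had a log2 fold change of -0.61 in the first table (edgeR adjusted p = 0.417, exact permutation p = 0.130). The cause of the difference between the tables was not tested. Cxcl10 overlaps by 133 bases with Art3. Cxcl9, the third of these ligands, had 11998 reads, differed by 1.98% in reads between tables and had the smallest standard error of the 25 ligands tested, with 49.3 to 73.4 CPM over all mice (log2 fold change 0.07, SE 0.11, exact permutation p = 0.584).

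Ccl11 had 7.15% more reads in the second table, 423 of them in AAV-GFP mice and 108 in AAV-Notum mice (log2 fold change -1.02), and Cxcl14 1.46% more (-1.53). For each of them every AAV-Notum mouse was then lower than every AAV-GFP one (exact permutation p = 0.00216, the smallest that 6 mice against 6 allow), as for 0.678% of all genes in that table. With edgeR on the reads of the second table, 8 ligands were lower at an unadjusted p under 0.05, the 6 named before with Ccl2 and Cxcl11, and 0 were higher, against 9.37% and 4.73% of the 16080 genes tested there. With limma on the log2 values of that table, ligands were also called higher, as counted below. Cxcl16 had 10669 reads in the first table and 9034 in the second, where its log2 fold change was 0.48.

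**Figure D3:**
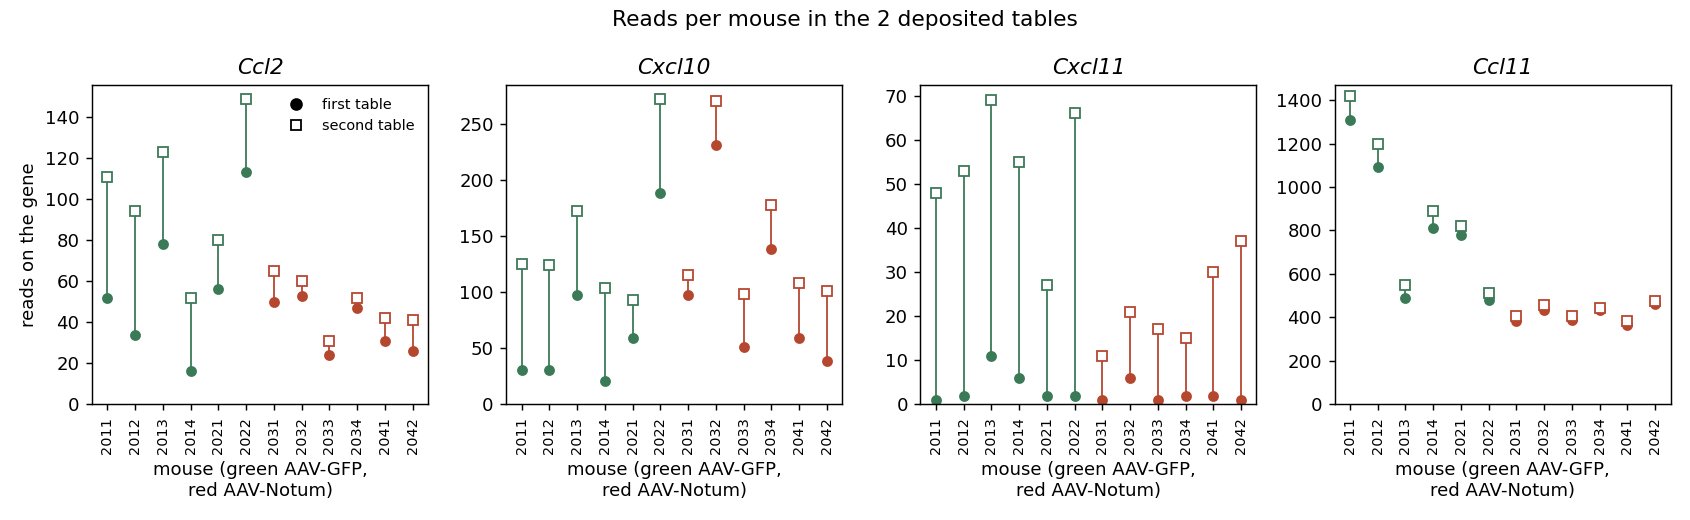
Reads per mouse of Ccl2, Cxcl10, Cxcl11 and Ccl11 in the first deposited table (filled circles) and as recovered from the second (open squares), with green for AAV-GFP and red for AAV-Notum mice and 1 line per mouse. For Ccl2 the second table adds 260 reads in the AAV-GFP group and 60 in the AAV-Notum group, and for Ccl11 it adds 423 and 108.

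Among the chemokines that direct cells into lymph nodes, Cxcl13 was the one measured with depth. CXCL13 binds CXCR5 and draws B cells into follicles. Cxcl13 (ENSMUSG00000023078, + strand of chromosome 5, 95956951 to 95961068) and Ccl19 (ENSMUSG00000071005, - strand of chromosome 4, 42754525 to 42756577) are shown with their RefSeq promoters (chr5:95956689-95956988, + strand, and chr4:42756316-42756615, - strand, GRCm38.p6), since they are homing ligands whose reads could be counted. The capitals in the Ccl19 promoter mark the interferon response core at -208, and the Cxcl13 promoter held none of the motifs in capitals.

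Cxcl13 promoter: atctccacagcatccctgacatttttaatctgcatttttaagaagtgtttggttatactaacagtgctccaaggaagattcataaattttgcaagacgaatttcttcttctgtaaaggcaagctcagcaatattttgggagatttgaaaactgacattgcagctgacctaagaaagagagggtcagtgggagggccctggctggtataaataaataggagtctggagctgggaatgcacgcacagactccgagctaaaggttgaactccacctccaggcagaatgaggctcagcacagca

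Ccl19 promoter: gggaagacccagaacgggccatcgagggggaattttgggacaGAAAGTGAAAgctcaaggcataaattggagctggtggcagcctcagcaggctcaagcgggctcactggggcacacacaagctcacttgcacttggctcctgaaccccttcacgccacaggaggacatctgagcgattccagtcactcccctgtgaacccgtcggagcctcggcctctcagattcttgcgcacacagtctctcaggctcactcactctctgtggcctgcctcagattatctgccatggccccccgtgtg

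Cxcl13 had 3.93 to 104 CPM (median 63.5) in AAV-GFP mice and 41.0 to 95.6 CPM (median 58.3) in AAV-Notum mice. The AAV-GFP mice split: AAV-GFP-2011, AAV-GFP-2012 and AAV-GFP-2014 had 5.10, 35.0 and 3.93 CPM, and the other 3 had 92.0 to 104 CPM. The AAV-Notum mice lay between those sets except for AAV-Notum-2032 at 95.6 CPM. The means did not differ by more than the spread (log2 fold change 0.16, SE 0.68, adjusted p = 0.911, exact permutation p = 0.366). The sign of the Cxcl13 difference turned without AAV-GFP-2011 (-0.08) or without AAV-GFP-2014 (-0.09). It was -0.65 without all 3 mice of low lymphoid score and -0.69 with the lymphoid score as a covariate. Both of these values passed an unadjusted p of 0.05 in edgeR, with an adjusted p of 0.879 and 0.342, the range over 24 alternatives being 0.342 to 0.998. The 3 mice left out were the lowest of the AAV-GFP group for Cxcl13, and they were left out after seeing the data. Leaving them out raises the AAV-GFP mean by choice, so the p of that fit is no test of Cxcl13.

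Ccl19, whose product binds CCR7 on T cells and dendritic cells, had 1 to 17 reads per mouse. Its level was 0.0596 to 0.995 CPM (median 0.426) in the AAV-GFP group and 0.194 to 0.800 CPM (median 0.638) in the AAV-Notum group. The lowest levels were those of AAV-GFP-2011, AAV-GFP-2014 and AAV-Notum-2042. A difference was not detectable at this depth (log2 fold change 0.26, SE 0.52, adjusted p = 0.792, exact permutation p = 0.405), and the value was -0.44 without the 3 AAV-GFP mice of low lymphoid score. Of the 914 stretches of 50 bases in Ccl19 transcripts, the length of the reads, 475 (52.0%) also occur in Gm2564, Gm12407, Ccl19-ps1 or Ccl19-ps3. The pseudogene Ccl19-ps1 itself had 137 reads, against 113 of Ccl19, and Gm12407 had 76, so the split of reads among these copies is uncertain.

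Ccl21a (ENSMUSG00000094686, - strand of chromosome 4, 42772860 to 42773993), which encodes the CCR7 ligand of lymph node stroma and high endothelial venules, had 0 reads in all 12 mice. A count of 0 allows up to 3 reads, or 0.138 to 0.199 CPM, of reads that the counting could assign. However, 588 of its 821 stretches of 50 bases (71.6%) also occur in Gm21541, Gm13304, Gm10591 or the chromosome 4 gene annotated as Ccl21b, and Gm21541, Gm13304 and Gm10591 had 0 reads as well. Whether reads that match several genes were discarded is not given in the sources used here, and the 0 cannot be read as absence of the transcript. The transcript of that Ccl21b (ENSMUSG00000095675, + strand, 42255767 to 42256432) aligned without gaps to Ccl21a over its 402 bases with 2 differences, T84A and C194T, counted from 1 at its first base. The stretches around C194T, with the differing base in capitals, show how alike the copies are.

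Ccl21a: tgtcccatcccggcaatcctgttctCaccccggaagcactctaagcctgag

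Ccl21b: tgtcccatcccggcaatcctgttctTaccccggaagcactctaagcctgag

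The genes that the table names Ccl21b and Ccl21c, which the annotation places on an unplaced scaffold under exchanged symbols, also had 0 reads. Of 5 markers of follicular dendritic cells and high endothelial venules, 5 were measured and 5 had a higher mean in AAV-Notum mice (0 with an unadjusted p under 0.05). Their mean level was -2.06 to 3.55 log2 CPM in the AAV-GFP group and 2.06 to 3.70 in the AAV-Notum group, with the lowest values again in AAV-GFP-2014 and AAV-GFP-2011.

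Several other ligands were lowest in the same 3 AAV-GFP mice. Ccl22, a product of dendritic cells that binds CCR4 on regulatory T cells, had 0.897, 4.94 and 0.417 CPM in AAV-GFP-2011, AAV-GFP-2012 and AAV-GFP-2014 and 26.2 to 77.5 CPM in the other 9 mice. Ccl5 (RANTES), which T cells make, had 4.26, 6.13 and 3.16 CPM in those 3 mice and 34.4 to 177 CPM in the others. Cxcl16, the membrane-bound ligand of CXCR6, had 13.5, 18.5 and 6.67 CPM in them and 22.1 to 99.3 CPM in the others. The 3 mice were thus below the other 9 for each of these ligands.

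The log2 fold changes in all mice were 1.01 for Ccl22 (exact permutation p = 0.0887), 0.96 for Ccl5 (0.0996), 0.94 for Ccl17 (0.0823), 0.69 for Xcl1 (0.0584), 0.47 for Cxcl16 (0.203) and 0.38 for Ccl4 (0.364). Ccl17 is the other CCR4 ligand, XCL1 is a T cell and natural killer cell product that attracts cross-presenting dendritic cells, and CCL4 is a product of activated T cells and macrophages. Without those 3 AAV-GFP mice the values were 0.07, 0.03, 0.20, 0.22, -0.29 and -0.08 in the same order. limma-voom gave an unadjusted p under 0.05 for Ccl22 (log2 fold change 2.58), Ccl5 (2.12), Ccl17 (1.502), Ccl8 (1.08) and Xcl1 (0.97), with adjusted p from 0.274 to 0.277, and edgeR did not for any of them. The part that the amount of lymph node in each fat sample had in these values was not tested beyond the covariate.

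**Figure D4:**
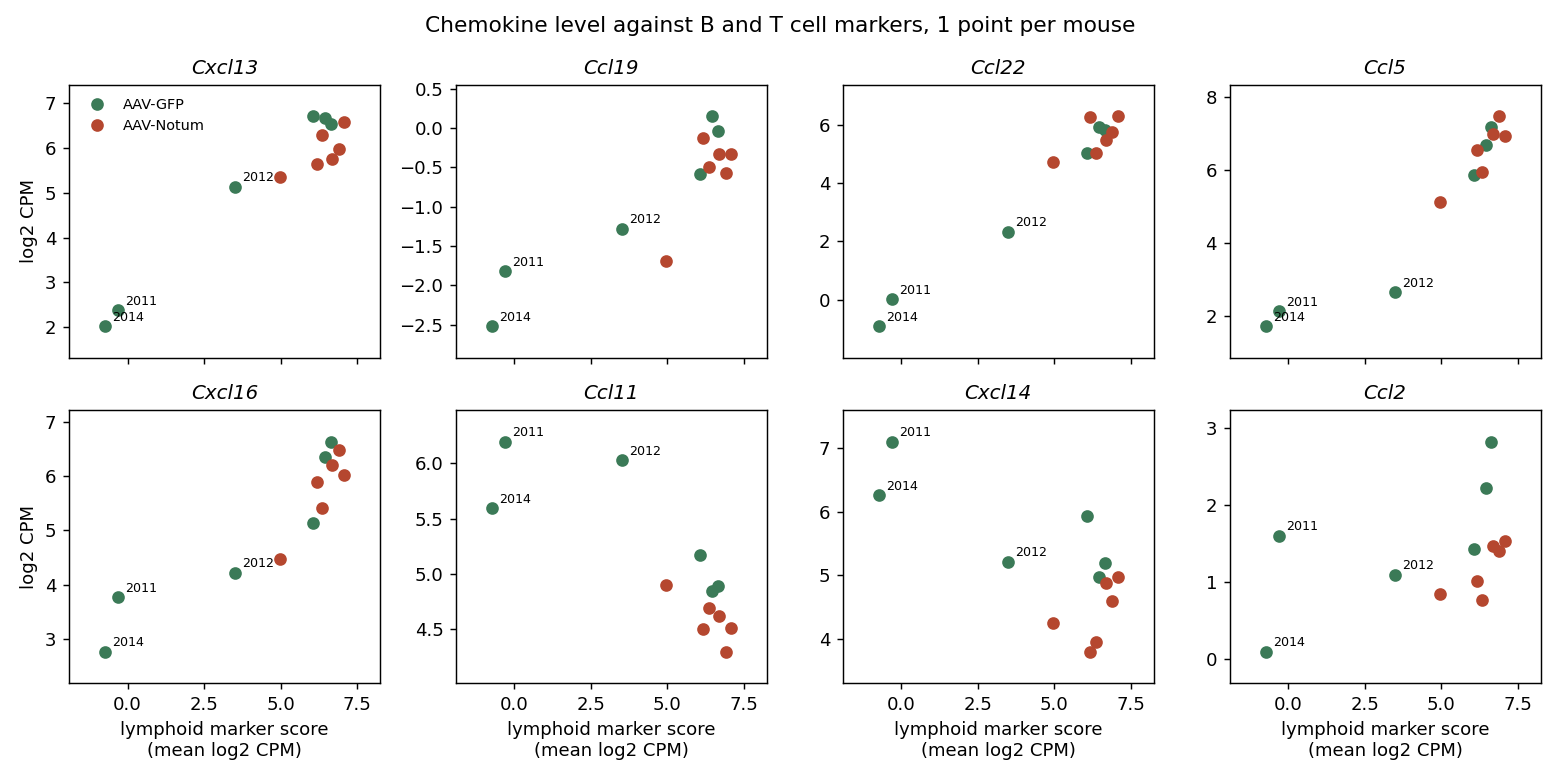
Level (log2 CPM) of 8 chemokine ligands against the lymphoid score, the mean log2 CPM of 15 B and T cell markers, with 1 point per mouse and the 3 AAV-GFP mice of lowest score labelled. Cxcl13, Ccl19, Ccl22, Ccl5 and Cxcl16 are low in AAV-GFP-2011 and AAV-GFP-2014, where Ccl11 and Cxcl14 are high; in Ccl2 the mice do not fall in 1 order.

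The stromal and other homeostatic ligands apart from Cxcl14 differed little. Cxcl12, which binds CXCR4 and retains leukocytes and progenitors in tissue, had the most reads of any member (44512). Its level was 171 to 389 CPM (median 220) in the AAV-GFP group and 163 to 212 CPM (median 189) in the AAV-Notum group. AAV-GFP-2012, the mouse with the later RNA isolation, stood apart at 389 CPM. The log2 fold change of Cxcl12 was -0.34 (SE 0.17, adjusted p = 0.375, exact permutation p = 0.0693) and -0.15 without that mouse. Without AAV-GFP-2021 it was -0.42, which passed an unadjusted p of 0.05 in edgeR (adjusted p = 0.302). Cx3cl1 (fractalkine), an endothelial membrane-bound chemokine, was at 0.24 (exact permutation p = 0.353), Ccl28 at 0.22 (0.390), Ccl27a at 0.04 (0.948) and Ccl25, a ligand of CCR9, at -0.07 (0.535, 7.64 to 12.9 CPM over all mice). Cxcl1, the 1 tested ligand of the neutrophil receptor CXCR2, had 3 to 22 reads per mouse and a log2 fold change of -0.33 (exact permutation p = 0.442).

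The members without a test had few reads over all 12 mice. Ccl3 had 80 reads, 2 to 7 in each AAV-GFP mouse and 4 to 13 in each AAV-Notum mouse. It was the 1 ligand higher at an unadjusted p under 0.05 with DESeq2. Ccl20 had 57 reads, Cxcl2 51, Cxcl11 37, Ccl1 29, Cxcl3 17, Cxcl5 6, Cxcl17 4, Ccl26 2 and Cxcl15 1. In the second table Cxcl17 had 30 reads, 22 in the AAV-GFP group and 8 in the AAV-Notum group. The 5 at 0 were Ccl21a, Ccl21b, Ccl21c, Ccl27 and Ccl27b. Of the 5 ligands of the neutrophil receptor CXCR2, 4 were thus below the filter.

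Of 23 chemokine receptor genes, 21 were tested, and 16 had a higher and 5 a lower mean in AAV-Notum mice. At an unadjusted p under 0.05 in edgeR, 1 was lower and 1 higher (4.76% each, against 9.54% and 4.64% of all genes), and 0 passed after adjustment with edgeR, DESeq2 or limma-voom. Ackr3, a scavenging receptor that removes CXCL12, had 16.8 to 36.3 CPM in the AAV-GFP group and 10.4 to 20.3 CPM in the AAV-Notum group, the groups overlapping (log2 fold change -0.55, SE 0.20, adjusted p = 0.265, exact permutation p = 0.0216). Ccr10, the receptor of CCL27 and CCL28, had 0.238 to 0.554 CPM in the AAV-GFP group and 0.530 to 0.984 CPM in the AAV-Notum group (log2 fold change 0.77, SE 0.26, adjusted p = 0.230, exact permutation p = 0.00649), on 120 reads in all. In the second table Ccr10 had 553 reads, 282 in the AAV-GFP group and 271 in the AAV-Notum group, and the difference was gone (log2 fold change 0.00, SE 0.21, adjusted p = 0.997, exact permutation p = 0.924).

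Of the receptors of the ligands given in full, Ccr3 had too few reads to be tested. Ccr2, the receptor of CCL2, had 24.2 ± 8.47 CPM (SD, n = 6) in the AAV-GFP group and 29.5 ± 9.22 CPM (SD, n = 6) in the AAV-Notum group (log2 fold change 0.29, exact permutation p = 0.335), opposite in sign to Ccl2. Ccr1, the receptor of CCL6 and CCL9, was at -0.36 (exact permutation p = 0.693) and, without the 3 AAV-GFP mice of low lymphoid score, at -0.45 (adjusted p = 0.879). Ccr7, the receptor of CCL19 and CCL21, had 0.417 to 133 CPM in the AAV-GFP group and 26.7 to 136 CPM in the AAV-Notum group (log2 fold change 0.81, exact permutation p = 0.106). Cxcr5, the receptor of CXCL13, had 0.179 to 60.6 CPM and 14.4 to 73.5 CPM (0.88, exact permutation p = 0.126). Both were lowest in AAV-GFP-2014 and AAV-GFP-2011, the mice with the least Cxcl13. Without the 3 AAV-GFP mice of low lymphoid score, Ccr7 was at -0.14 and Cxcr5 at 0.02, and Ccr2 was at -0.07, no longer opposite in sign to Ccl2.

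Promoters were found in the RefSeq table for 27 of the 40 members, as 33 promoters of 300 bases; Ccl2, Ccl7, Ccl11, Ccl24 and Ccl5 are named only. On either strand, the NF-kB consensus was in 8 of the 33 promoters (8.46% of 32851 promoters of the genome), the TCF core CTTTGA of Wnt target genes in 6 (16.0%), the interferon response core in 3 (3.44%) and TATAAA, left in lower case above, in 10 (13.6%). The motifs were searched separately and could overlap. A match is a description of the sequence, and members that share a promoter or lie in copies are not independent.

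Adipose progenitors make Cxcl12, Cxcl14 and Ccl11, and their markers did not move in 1 direction. Of 5 progenitor markers, 3 had a lower and 2 a higher mean in AAV-Notum mice, from -0.49 to 0.65 in log2 fold change. At an unadjusted p under 0.05, 1 was lower (20%), against 9.54% of all genes. That marker was Pdgfra (log2 fold change -0.49, SE 0.14, adjusted p = 0.167, exact permutation p = 0.00649), while Dpp4 was at 0.65 (exact permutation p = 0.154). The mean level of the 5 was 5.27 to 6.53 log2 CPM in the AAV-GFP group and 5.95 to 6.52 in the AAV-Notum group, a difference of 0.08 that was within the spread (exact permutation p = 0.723). None of the 5 was at 0, and their part in the lower levels of Ccl11 and Cxcl14 was not tested.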

How the data were processed

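Per the labels and the study's methods, the authors isolated iWAT RNA, made TruSeq libraries, sequenced 50 bp single-end reads on a HiSeq4000, checked them with FastQC, mapped them to mm10 with STAR 2.3.1 and tested them with DESeq2. The program and annotation behind the counts are not given in the sources used here. The authors deposited counts per gene without normalisation (the first table) and log2 values (the second table), which are log2 of reads over a size factor, plus 1. Reversing that step returned whole reads in 100% of values (tolerance 0.02 reads), and 34 of the 40 members were listed. Of the members, genes absent from the second table had at most 1 read.

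Counts were tested with edgeR 4.0.16 in R 4.3.3 (filterByExpr with a minimum count of 10 and total of 15, TMM, two-sided quasi-likelihood test, Benjamini-Hochberg adjustment over 15585 genes, threshold 0.05). CPM use TMM library sizes, and log2 CPM a prior count of 2. Exact permutation tests were two-sided on mean log2 CPM over all 924 assignments of 12 mice. The p of a single gene is unadjusted unless called adjusted. Replicates are separate mice.

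The members, gene lists and tests were chosen with earlier results of these data known. Named in full were Ccl19, Ccl21a, Cxcl13, Ccl2 and members with an unadjusted p under 0.05; the others stand in their receptor group. Fits were tested on simulated counts. Alternatives were DESeq2 1.42.0, limma-voom (limma 3.58.1), RLE, other filters, RIN or lymphoid score as covariate, each mouse left out, and both forms of the second table. The macrophage score and leaving out 2 or 3 AAV-GFP mice together were added after seeing the data. Positions are those of GENCODE vM21 (GRCm38), promoters those of RefSeq (GRCm38.p6). Python 3.11.15 with matplotlib 3.10.9 drew the figures.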

Additional observations from a re-analysis of the deposited data

Results flagged for a closer look

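Over the 25 ligands in 2 groups each, 50 groups of 6 mice were searched for a mouse far from the others, and 1 was found, where chance alone gives about 1 in 20, or 2.5 of 50. Cxcl12 was at 389.2 CPM in AAV-GFP-2012, against 226 CPM in the next AAV-GFP mouse and 171 in the lowest. This is the mouse whose RNA was isolated 22 days after collection, and the part of that interval in the value was not tested.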

How the results depend on the processing

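Over DESeq2, RLE size factors, 2 other filters, limma-voom, 2 planned and 1 added covariate, both forms of the second table, each mouse left out and 2 added sets of AAV-GFP mice left out, Ccl6, Ccl9, Ccl11 and Cxcl14 stayed lower at an unadjusted p under 0.05. The count of lower ligands (6) ran from 5 to 8 over the settings that kept every mouse and from 4 to 7 with 1 mouse left out. The count of higher ligands (0) was 1 with DESeq2, with no filter beyond 1 count, with the lymphoid score as a covariate and without AAV-GFP-2014 and AAV-GFP-2011, 2 with the macrophage score as a covariate, 4 with limma on the second table and 5 with limma-voom, and 0 to 4 with 1 mouse left out. The count of ligands with an adjusted p under 0.05 (0) was 2 with DESeq2. Receptors lower (1) were 0 with the macrophage score, 2 without AAV-GFP-2014 and AAV-GFP-2011, and 1 to 2 with 1 mouse left out, the higher value without AAV-GFP-2014. Receptors higher (1) were 7 with limma-voom, 4 with limma on the second table, 3 with the macrophage score, and 0 with at least 10 counts in every mouse, the lymphoid score, the recovered reads of the second table and either set of AAV-GFP mice left out; with 1 mouse left out they were 1 to 3, the higher value without AAV-GFP-2022.

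Signs turned for ligands that were not called with edgeR in all mice, and 2 of the turned values, both of Cxcl13, had an unadjusted p under 0.05. With the lymphoid score as a covariate the log2 fold change was -0.69 for Cxcl13, -0.46 for Ccl19, -0.30 for Cxcl16, -0.23 for Cxcl10, -0.18 for Cx3cl1 and -0.035 for Ccl4. Without AAV-GFP-2011, AAV-GFP-2012 and AAV-GFP-2014 the same ligands were at -0.65, -0.44, -0.29, -0.21, -0.063 and -0.083. Without AAV-GFP-2014 and AAV-GFP-2011 alone, Cxcl13 was at -0.39, Ccl19 at -0.20 and Cx3cl1 at -0.034. With RIN as a covariate Cxcl13 was at -0.16. With limma-voom Ccl12 was at 0.38 and Ccl27a at -0.0069, with limma on the second table Ccl12 was at 0.38, with its recovered reads Cxcl10 was at -0.052, and with the macrophage score Ccl27a was at -0.041. With 1 mouse left out, Cxcl13 ran from -0.087 to 0.42, Cxcl9 from -0.00067 to 0.12, Ccl12 from -0.60 to 0.053 and Ccl27a from -0.12 to 0.18. The causes were not tested. No paired analysis was possible because the groups share no replicate numbers. Ligands with few reads, such as Ccl19, Ccl4, Ccl17 and Cxcl1, carry the most counting error.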
